A study of Mus musculus with 8 samples.

Results

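Of the 29442 genes counted in hippocampal RNA of female mice, 35 genes enriched in microglia were taken by their symbols, namely genes of microglial identity, of surface receptors and of lysosomes. All 35 were present in the count table, and all 35 were among the 27612 genes tested, which are those with at least 1 count. The 8 libraries came from female C57BL/6 J mice aged 6 to 8 weeks. Of these mice, 4 received DHEA, a steroid precursor of androgens, at 30 mg/kg/day, and 4 received sesame oil, the vehicle. Both groups were injected under the abdominal skin for 21 days, went through behavioural tests (open field, forced swim and tail suspension) and then gave hippocampal tissue from 1 side of the brain, described as ventral in the methods. The libraries are named by the numbers in their titles, 3, 4, 7 and 11 for DHEA and 5, 9, 10 and 16 for sesame oil, and lists of values follow this order. No transcript measured here checks which mice received DHEA. The study's own table of changed genes is signed in the opposite direction to the deposited labels, so the groups are the libraries labelled DHEA and the libraries labelled sesame oil throughout.

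Microglia are the resident macrophages of the brain. They depend on signals through the CSF1 receptor, keep their identity through transcription factors such as PU.1 (encoded by Spi1) and SALL1, sense their surroundings through receptors that signal over ITAM-bearing adaptors, and digest what they take up in lysosomes. In the hippocampus they are known for the removal of synapses and of dying newborn neurons. The tissue label was checked with 8 genes of the hippocampal fields, among them Prox1 of the dentate gyrus and Wfs1 of CA1. All 8 were detected in every library, with a summed level that ranged from 1178 to 1423 CPM (counts per 1000000 after TMM scaling). Neurod6, the most abundant of them per length, had a mean of 105 FPKM (counts per length and library total, as deposited). Since whole tissue was sequenced, a difference in the number of microglia and a difference in RNA per microglial cell cannot be told apart in any value below. On the first principal component of log2 CPM, which held 29.9% of the variance over genes averaging at least 10 counts, DHEA libraries 3 and 4 had scores of 25.01 and 49.5 and the other 6 libraries scores of -18.9 to -1.23. The medians of the members and of the other lists, and the values of several members, are also given without these 2 libraries.

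The promoters of some members share a short sequence that PU.1 and related ETS factors are known to bind, and they are shown because PU.1 is itself encoded by a member. The letters GAGGAAGT were searched on both strands in the RefSeq promoter windows (build GRCm38.p6), which run from 250 bases before to 50 bases after each start. Windows were found for 26 of the 35 members. The other members are Csf1r, Tmem119, Tyrobp, Gpr34, Selplg, Spi1, Bin2, Unc93b1 and Lyn. The letters stood in the windows of 6 of these 26 members (23.1%), against 3.69% of the 27025 genes with a window. The 6 members were Inpp5d, Ctss, Cd53, Hpgds, Slco2b1 and Cyth4. For the first 5, the 120 bases before and 30 bases after the start are given below from 5′ to 3′ on the strand of the gene. Capitals mark GAGGAAGT or, where the match lies on the opposite strand, its reverse complement ACTTCCTC.
Inpp5d: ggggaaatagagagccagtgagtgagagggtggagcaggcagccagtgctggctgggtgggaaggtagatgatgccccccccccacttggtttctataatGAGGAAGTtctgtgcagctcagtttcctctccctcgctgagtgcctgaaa
Ctss: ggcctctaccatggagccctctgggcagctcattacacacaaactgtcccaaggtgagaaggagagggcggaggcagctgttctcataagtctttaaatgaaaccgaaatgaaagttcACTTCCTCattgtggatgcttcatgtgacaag
Cd53: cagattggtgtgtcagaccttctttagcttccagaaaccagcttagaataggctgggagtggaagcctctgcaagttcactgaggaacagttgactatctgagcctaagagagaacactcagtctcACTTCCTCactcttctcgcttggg
Hpgds: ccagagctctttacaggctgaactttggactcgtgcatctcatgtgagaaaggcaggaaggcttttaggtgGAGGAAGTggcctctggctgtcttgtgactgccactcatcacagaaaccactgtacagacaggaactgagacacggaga
Slco2b1: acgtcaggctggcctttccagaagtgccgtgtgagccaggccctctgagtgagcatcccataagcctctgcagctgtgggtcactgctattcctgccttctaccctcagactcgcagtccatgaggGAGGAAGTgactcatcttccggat
These stretches lie at chr1:87620192-87620341 (plus strand) for Inpp5d, chr3:95526666-95526815 (plus strand) for Ctss, chr3:106790120-106790269 (minus strand) for Cd53, chr6:65144701-65144850 (minus strand) for Hpgds and chr7:99711311-99711460 (minus strand) for Slco2b1. Counted from the start, the match spans positions -20 to -13 in Inpp5d, -2 to 6 in Ctss, 7 to 14 in Cd53, -49 to -42 in Hpgds and 7 to 14 in Slco2b1. A match of letters is a description of these windows, and no binding was measured.

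The first comparison asked how the microglial genes differed between the libraries labelled DHEA and those labelled sesame oil. Slightly higher levels were found for nearly all of them in the libraries labelled DHEA (34 of 35 members, and 32 to 34 under the other settings that kept all 8 libraries). This number was 29 to 35 when 1 library was left out and 26 without libraries 3 and 4. No single member passed edgeR's test after adjustment over all genes. The log2 fold change was above 0 for 34 of the 35 members, the exception being Bin2, while it was above 0 for 51.2% of all genes tested and for 53.5% of the genes averaging at least 10 counts. Its median was 0.20 over the members, a 1.15-fold difference, and 0.0079 over all genes tested. The median SE of a single member was 0.13. Single members ranged from -0.09 for Bin2 to 0.57 for Ptprc, and 0 of the 35 differed by 2-fold or more. The summed level of the members was 659, 730.1, 621 and 651 CPM in the libraries labelled DHEA and 536, 613, 601 and 582 CPM in those labelled sesame oil. These are means of 665 ± 46.3 and 583 ± 34.0 CPM (SD, n = 4 each) and a ratio of 1.14, and the lowest DHEA library lay above the highest sesame oil library.

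In edgeR's quasi-likelihood test, 10 of the 35 members (28.6%) had an unadjusted p under 0.05, and all 10 were higher in the libraries labelled DHEA. They were Ctss, Laptm5, Itgam, Rnase4, Inpp5d, Fcer1g, Hpgds, Slco2b1, Fcgr3 and Fcrls. Over all genes tested 9.31% passed this threshold, 4.82% with higher and 4.49% with lower levels in the libraries labelled DHEA. Among genes averaging at least 10 counts the share was 13.1%, with 6.85% higher. After Benjamini-Hochberg adjustment, 0 of the members and 0 of all genes stayed below 0.05, and Ctss came nearest among the members (adjusted p 0.230). With DESeq2, 153 genes (0.554%) passed the adjusted threshold, and Ctss was the 1 member among them (adjusted p 0.0324). Unadjusted, 8 members were under 0.05 with DESeq2, beside 8.21% of all genes. Over the alternatives the adjusted p of Ctss ranged from 0.0324 with DESeq2 to 0.727 without sesame oil library 5, and it was also under the threshold without DHEA library 7 (edgeR, adjusted p 0.0388). The 2 groups did not overlap for 4 members, Laptm5, Inpp5d, Ctss and Hpgds, all higher, while groups without overlap were found for 5.04% of all genes tested, 2.42% with higher and 2.62% with lower levels. Among genes averaging at least 10 counts, 3.63% were higher without overlap.

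**Figure D1:**
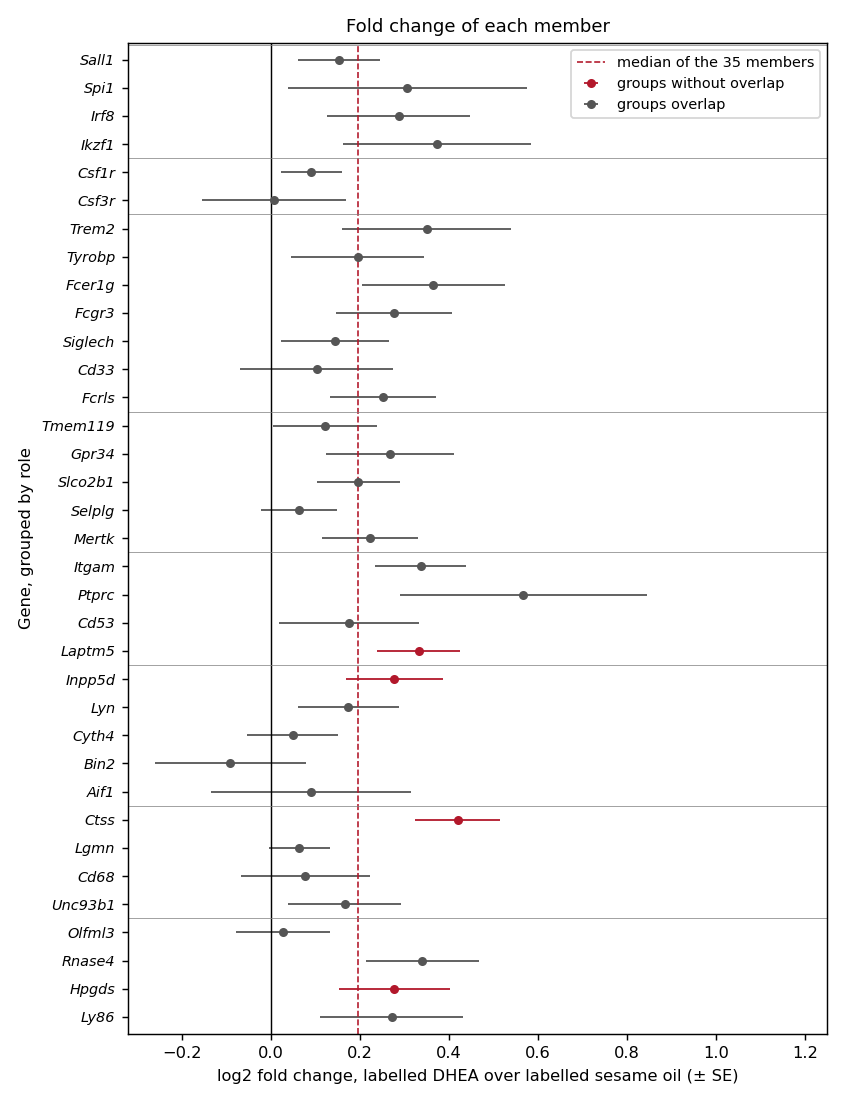
Log2 fold change of each of the 35 members with its SE (horizontal axis), the members being grouped by role (vertical axis), red for the 4 members whose groups did not overlap and grey for the others; the dashed line is the members' median of 0.20. All points except that of Bin2 lie to the right of 0, and the highest is Ptprc at 0.57 with a wide error bar.

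Levels of the members spanned a wide range. Per length, Lgmn was the most abundant with a mean of 43.0 ± 2.48 FPKM (SD over the 8 libraries), followed by Ctss with 35.1 ± 6.36 FPKM and Csf1r with 19.8 ± 1.21 FPKM. The lowest levels were those of Ikzf1 with 0.646 ± 0.158 FPKM and Ptprc with 0.797 ± 0.398 FPKM. The median level of the members was 4.40 FPKM, compared with 0.529 FPKM over all genes tested. Raw counts of the members lay between 42 and 3361 per library, and the median coefficient of variation between libraries was 13.8% in the DHEA group and 11.9% in the sesame oil group.

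Among the transcription factors, none of the 4 members had an unadjusted p under 0.05, although all 4 fold changes were above 0 (median 0.30). Sall1, the most abundant of them per length and the factor that holds microglia in their resting identity, was measured at 25.7, 29.4, 25.6 and 25.9 CPM in the libraries labelled DHEA and 23.8, 26.5, 25.1 and 20.4 CPM in those labelled sesame oil. DHEA library 4 was the highest and sesame oil library 16 the lowest for Sall1, and the groups overlapped (log2 fold change 0.15, SE 0.092, adjusted p 0.621). Spi1, which encodes PU.1, had 2.10, 2.50, 1.78 and 3.18 CPM against 1.27, 2.19, 1.598 and 2.67 CPM, with a log2 fold change of 0.31 and an SE of 0.27. Its groups overlapped broadly, and the value was 0.14 without DHEA library 11, 0.15 without sesame oil library 5 and 0.49 without sesame oil library 16. Irf8, a partner of PU.1 in myeloid cells, had a log2 fold change of 0.29 (adjusted p 0.591). Ikzf1, the lymphoid and myeloid factor Ikaros, had a value of 0.37 (adjusted p 0.596), with sesame oil library 16 lowest at 2.38 CPM.

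The 2 receptors of colony stimulating factors had the smallest median of the role groups (0.049). Csf1r, whose signal keeps microglia alive, had 77.2, 86.6, 79.4 and 74.3 CPM in the libraries labelled DHEA and 68.7, 79.7, 76.3 and 73.2 CPM in the others. The groups overlapped, with a log2 fold change of 0.092 (SE 0.069, adjusted p 0.666). Csf3r, the receptor of granulocyte colony stimulating factor, is best known from neutrophils, and its log2 fold change was 0.0071 with an SE of 0.16. The sign of Csf3r turned under 7 of the alternatives, besides those that left out 1 library, so no direction is given for it.

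The role group of immune receptors linked to ITAM or ITIM signalling, with their adaptors, had fold changes above 0 for all 7 members (median 0.25). Of the 7, 3 had an unadjusted p under 0.05. Fcer1g encodes the Fc receptor gamma chain, the signalling subunit of several activating receptors. It was measured at 5.87, 7.32, 6.30 and 7.45 CPM in the libraries labelled DHEA and 4.77, 6.08, 5.97 and 4.06 CPM in those labelled sesame oil. DHEA library 3 lay below sesame oil libraries 9 and 10, so the groups overlapped, and the log2 fold change was 0.37 (SE 0.16, adjusted p 0.503). Fcgr3, a low-affinity receptor of immunoglobulin G that needs this gamma chain, had 10.1, 12.5, 8.82 and 12.3 CPM against 8.21, 8.72, 9.17 and 9.96 CPM. DHEA libraries 4 and 11 were the highest and DHEA library 7 fell among the sesame oil libraries (log2 fold change 0.28, SE 0.13, adjusted p 0.531). With DESeq2, RLE normalization, thinning or the GC correction, the unadjusted p of Fcgr3 was above 0.05. Near-identical relatives of Fcgr3 lie beside it in the genome, so its counts may depend on how shared reads were treated, which was not tested.

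Fcrls, an Fc receptor-like protein found on microglia and hardly on blood monocytes, had 24.7, 28.2, 24.2 and 17.8 CPM in the libraries labelled DHEA and 17.2, 20.6, 21.7 and 20.1 CPM in the others. DHEA libraries 3, 4 and 7 lay above every sesame oil library and DHEA library 11 below all except library 5, with a log2 fold change of 0.25 (SE 0.12, adjusted p 0.531). The value of Fcrls was 0.15 without library 4 and 0.068 without libraries 3 and 4, both with an unadjusted p above 0.05. Tyrobp encodes DAP12, the adaptor of TREM2, and was the most abundant member of this group per length. Its levels were 8.91, 11.3, 6.96 and 8.24 CPM against 7.46, 8.42, 8.38 and 6.63 CPM, and they overlapped (log2 fold change 0.20, SE 0.15, adjusted p 0.666). Without DHEA library 4 the value of Tyrobp was 0.049. Trem2, a lipid receptor of phagocytic microglia, had a log2 fold change of 0.35 (adjusted p 0.585), and DHEA library 4 alone reached 9.20 CPM while the other 7 libraries stayed between 3.92 and 6.40 CPM. For Siglech and Cd33, inhibitory or adaptor-linked lectins that bind sialic acid, the log2 fold changes were 0.14 and 0.10, with adjusted p values of 0.666 and 0.849. Without DHEA library 4 they were 0.046 and -0.015.

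Among the other surface proteins of resting microglia, 1 of 5 members had an unadjusted p under 0.05. Slco2b1, an organic anion transporter whose known substrates include steroid sulfates, had 23.8, 24.4, 19.6 and 24.3 CPM in the libraries labelled DHEA and 19.0, 20.8, 20.9 and 19.7 CPM in those labelled sesame oil. DHEA libraries 3, 4 and 11 lay close together above all sesame oil libraries, and DHEA library 7 fell inside the sesame oil range. The log2 fold change of Slco2b1 was 0.20 (SE 0.092, adjusted p 0.531). Its unadjusted p was above 0.05 with RLE normalization and after thinning, and under 0.05 in 1 of the 8 fits that left out 1 library. Selplg, which encodes the selectin ligand PSGL-1, was the most abundant of the group per length. It had 20.9, 22.9, 20.4 and 20.5 CPM against 18.8, 21.1, 20.8 and 20.2 CPM and a log2 fold change of 0.064 (SE 0.086, adjusted p 0.790). Mertk, a receptor for the clearance of dying cells that astrocytes also express, stood at 65.7 CPM in DHEA library 11 and between 36.8 and 47.9 CPM in the other 7 libraries (log2 fold change 0.22, adjusted p 0.540). Without library 11 the value of Mertk was 0.085. Tmem119 and Gpr34, a surface protein and a lysophosphatidylserine receptor used to tell microglia from other macrophages, had log2 fold changes of 0.12 and 0.27, with adjusted p values of 0.668 and 0.585. Without DHEA library 4 these fold changes were 0.029 and 0.12, and without DHEA libraries 3 and 4 they were -0.064 and 0.0026.

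The membrane proteins that microglia share with other leukocytes had the highest median among the role groups (0.33), and 2 of the 4 had an unadjusted p under 0.05. Laptm5, a lysosomal membrane protein of blood-derived and microglial cells, was measured at 29.9, 33.0, 28.2 and 28.7 CPM in the libraries labelled DHEA and 21.3, 26.1, 26.2 and 21.4 CPM in those labelled sesame oil. The groups did not overlap, and the log2 fold change was 0.33 (SE 0.093, adjusted p 0.275). Itgam encodes CD11b, the integrin subunit by which microglia are commonly sorted. Its levels were 26.9, 30.8, 26.3 and 23.6 CPM against 19.3, 25.0, 21.4 and 19.5 CPM, with DHEA library 11 the lowest of its group and below sesame oil library 9 (log2 fold change 0.34, SE 0.10, adjusted p 0.297). Laptm5, Itgam and Ctss were the 3 members that kept an unadjusted p under 0.05 in all 8 fits that left out 1 library.

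Ptprc, which encodes the leukocyte antigen CD45, had the largest log2 fold change and the largest spread, and it rested on 1 library. It was measured at 4.66, 4.35, 3.27 and 10.1 CPM in the libraries labelled DHEA and 3.32, 3.29, 5.24 and 3.21 CPM in the others. DHEA library 11 was the only library above 6 CPM, and without it the log2 fold change of Ptprc was 0.12 instead of 0.57 (SE 0.28, adjusted p 0.549). Of the 20 marker genes of blood leukocytes, all 20 had a mean under 1 CPM. Of these 20, 11 had a log2 fold change above 0 and 9 below 0. Plac8 and Chil3, genes of monocytes and neutrophils, stood at 1.94 and 3.04 CPM in DHEA library 11 and at most 0.196 and 0.252 CPM elsewhere. The T cell genes Cd3d, Cd3e and Cd8a had means of 0.125, 0.750 and 0.250 counts per library. The part of blood cells in the Ptprc value was not tested. Cd53, a leukocyte tetraspanin, had a log2 fold change of 0.18 (adjusted p 0.666), with DHEA library 4 at 12.7 CPM and the other 7 libraries between 7.18 and 9.43 CPM.

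**Figure D2:**
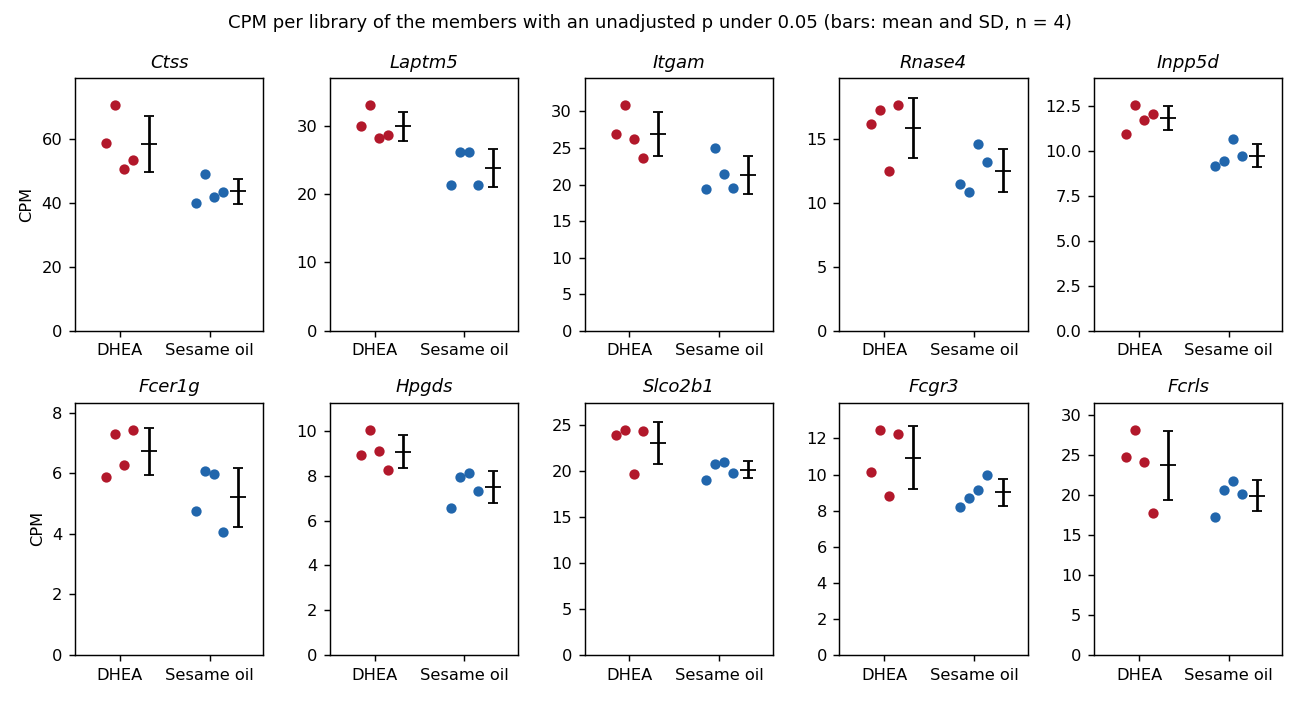
Level in CPM (vertical axes, from 0) of the 10 members with an unadjusted p under 0.05 in each library labelled DHEA (red) and sesame oil (blue), with the mean and SD of the 4 libraries of each group beside the points. The groups are apart for Ctss, Laptm5, Inpp5d and Hpgds and overlap for the other 6 members, and Ctss has means of 58.4 and 43.6 CPM.

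Of the 5 cytoplasmic signalling and cytoskeletal proteins, Inpp5d had an unadjusted p under 0.05. Inpp5d encodes the lipid phosphatase SHIP-1, which dampens signals from ITAM receptors. It was measured at 10.96, 12.5, 11.7 and 12.04 CPM in the libraries labelled DHEA and 9.18, 9.43, 10.7 and 9.71 CPM in those labelled sesame oil, the lowest value of the former lying just above the highest of the latter. The log2 fold change was 0.28 (SE 0.11, adjusted p 0.430). Cyth4, an exchange factor of small GTPases and the most abundant of the group per length, had 15.8, 16.3, 14.9 and 14.4 CPM against 12.98, 16.4, 15.3 and 14.7 CPM and a log2 fold change of 0.049 (SE 0.10, adjusted p 0.882). The kinase gene Lyn had a log2 fold change of 0.17 (adjusted p 0.645). Aif1, which encodes the immunohistochemical marker IBA1, had a value of 0.091 with an SE of 0.22, and DHEA library 3 was among its lowest libraries. Bin2, a membrane-bending protein of leukocytes, was the only member with a value below 0, at -0.090 with an SE of 0.17, and this sign turned when sesame oil library 10 was left out.

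The clearest difference among the endosomal and lysosomal members, and among all 35, was that of Ctss. Ctss encodes cathepsin S, a cysteine protease of antigen-presenting cells. Its levels were 58.6, 70.5, 50.7 and 53.6 CPM in the libraries labelled DHEA and 39.9, 49.1, 41.9 and 43.5 CPM in those labelled sesame oil. Every library labelled DHEA lay above every library labelled sesame oil, with library 4 highest and library 5 lowest. The means of Ctss were 58.4 ± 8.76 and 43.6 ± 3.95 CPM (SD, n = 4 each). The difference was 1.34-fold (log2 0.42, SE 0.095, adjusted p 0.230).

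Lgmn, the asparaginyl endopeptidase that processes cathepsins, was the most abundant member per length. It had 90.5, 87.7, 88.8 and 86.2 CPM against 86.4, 83.3, 75.2 and 92.8 CPM, and sesame oil library 16 was the highest of all 8. The log2 fold change of Lgmn was 0.065 (SE 0.068, adjusted p 0.703). Cd68, a glycoprotein of late endosomes used as a marker of phagocytic activity, had a log2 fold change of 0.078 (adjusted p 0.864). For Unc93b1, which carries nucleic acid-sensing Toll-like receptors to endosomes, it was 0.17 (adjusted p 0.666).

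Among the 4 secreted proteins and enzymes, Rnase4 and Hpgds had an unadjusted p under 0.05. Rnase4, a secreted ribonuclease, was measured at 16.2, 17.3, 12.5 and 17.6 CPM in the libraries labelled DHEA and 11.5, 10.8, 14.6 and 13.2 CPM in the others. DHEA library 7 lay inside the sesame oil range, and the log2 fold change was 0.34 (SE 0.13, adjusted p 0.408). Rnase4 shares its locus and promoters with Ang and is also expressed by other cells. Hpgds, the haematopoietic prostaglandin D synthase, had 8.94, 10.1, 9.10 and 8.27 CPM against 6.55, 7.97, 8.13 and 7.33 CPM without overlap, DHEA library 11 being only slightly above sesame oil library 10. Its log2 fold change was 0.28 (SE 0.13, adjusted p 0.515). The unadjusted p of Hpgds was above 0.05 after GC correction and under 0.05 in 3 of the 8 fits that left out 1 library. Olfml3, a secreted matrix protein and the most abundant of the group per length, had 20.2, 21.1, 17.2 and 15.7 CPM against 16.7, 18.7, 19.5 and 17.9 CPM. The groups overlapped fully (log2 fold change 0.027, SE 0.11, adjusted p 0.947), and this sign turned on the FPKM scale and without libraries 3 and 4. Ly86, which encodes MD-1, a partner of the Toll-like receptor relative RP105, had a log2 fold change of 0.27 (adjusted p 0.609).

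For most of the members, the highest and the lowest level came from the same 2 libraries. DHEA library 4 had the highest CPM for 25 of the 35 members, while it was the highest library for 20.5% of all genes averaging at least 10 counts. Sesame oil library 5 had the lowest CPM for 23 of the 35, compared with 12.2% of those genes. The median deviation of the members from their mean over the 8 libraries was 0.29 on the log2 scale in library 4 and -0.28 in library 5, and between -0.12 and 0.08 in the other 6 libraries. Without library 4 the median log2 fold change of the members was 0.14 and 6 members had an unadjusted p under 0.05, beside 7.26% of all genes. Without library 5 these values were 0.15 and 4, beside 6.53% of all genes, and the 4 were Ctss, Itgam, Laptm5 and Rnase4. Without DHEA library 7, the count was 14 and the median 0.26, while the share of all genes under the threshold was 13.4%. Leaving out 1 library moved the log2 fold change by more than 1.5 times, in at least 1 of the 8 fits, for 24 of the 35 members, among them Fcrls as the only 1 of the 10 named for their unadjusted p. For example, the lowest and highest values over these fits were 0.22 to 0.52 for Ikzf1, 0.078 to 0.21 for Sall1 and 0.14 to 0.39 for Ly86, each lowest without sesame oil library 16, and 0.039 to 0.13 for Csf1r and 0.14 to 0.47 for Trem2, both lowest without DHEA library 4. The ranges were 0.093 to 0.23 for Unc93b1, 0.013 to 0.11 for Lgmn and 0.016 to 0.085 for Selplg.

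**Figure D3:**
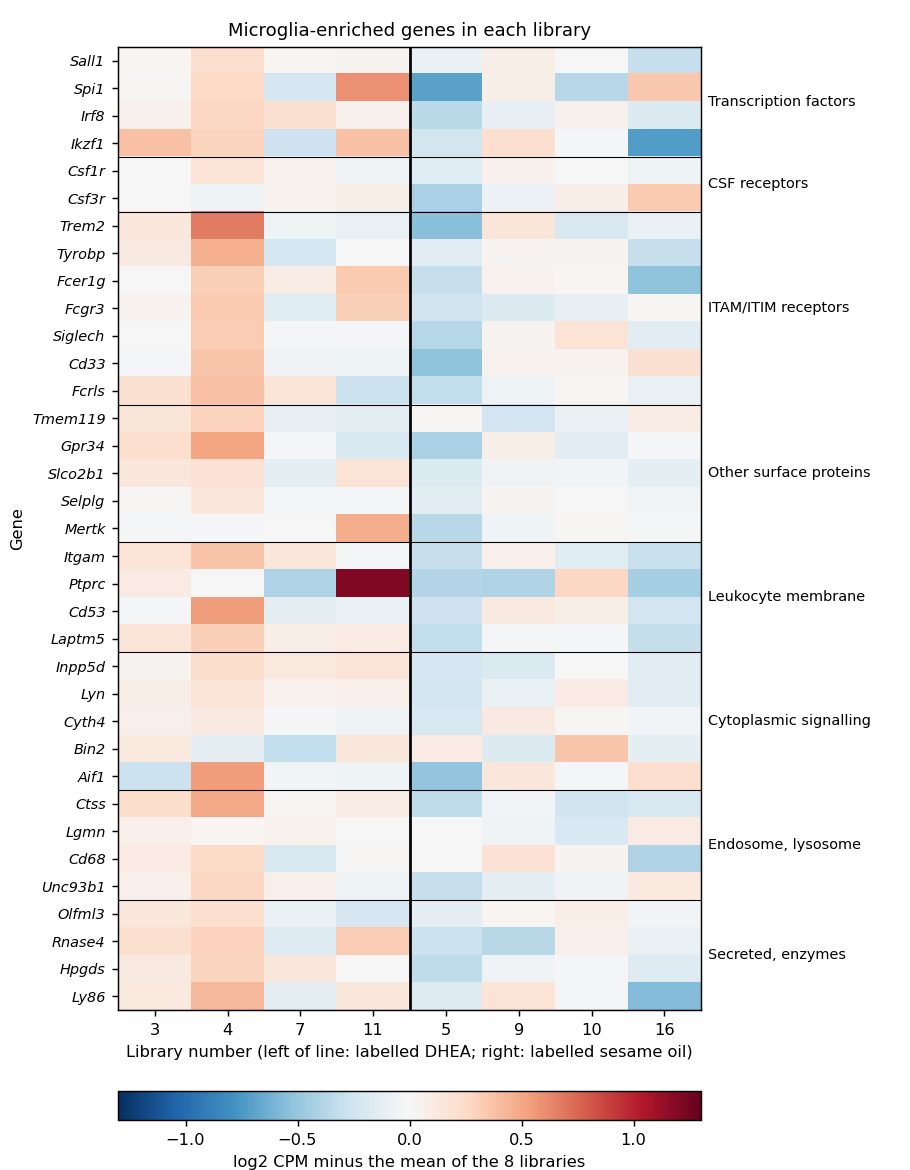
Heat map of the 35 members (vertical axis, grouped by role) in the 8 libraries (horizontal axis), coloured by log2 CPM minus the mean of the 8 libraries. The column of DHEA library 4 is mostly red (median 0.29) and that of sesame oil library 5 mostly blue (median -0.28), while Ptprc in DHEA library 11 is the darkest red cell.

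Leaving out DHEA libraries 3 and 4 together gave the lowest median of the settings run. With only DHEA libraries 7 and 11 against the 4 sesame oil libraries, 26 of the 35 members had a log2 fold change above 0, the median was 0.073, and 5 members had an unadjusted p under 0.05, namely Ctss, Inpp5d, Laptm5, Mertk and Ptprc, beside 7.89% of all genes. For 21 of the 34 members above 0 the log2 fold change was lower by more than 1.5 times or turned below 0. Among the 10 members named for their unadjusted p, this held for Ctss (0.25), Itgam (0.22), Slco2b1 (0.12) and Fcrls (0.068), while Fcer1g (0.39) and Inpp5d (0.28) had values at least as high as with all libraries. Trem2 was at 0.068 and Ptprc at 0.82. Libraries 9 and 11 carry a later run of record numbers than the other 6. Without both of them the median was 0.21, with 33 of 35 values above 0 and 8 members with an unadjusted p under 0.05, beside 10.3% of all genes, and Fcrls and Rnase4 were at 0.38 and 0.22. The labels give no batch, cage or litter.

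**Figure D4:**
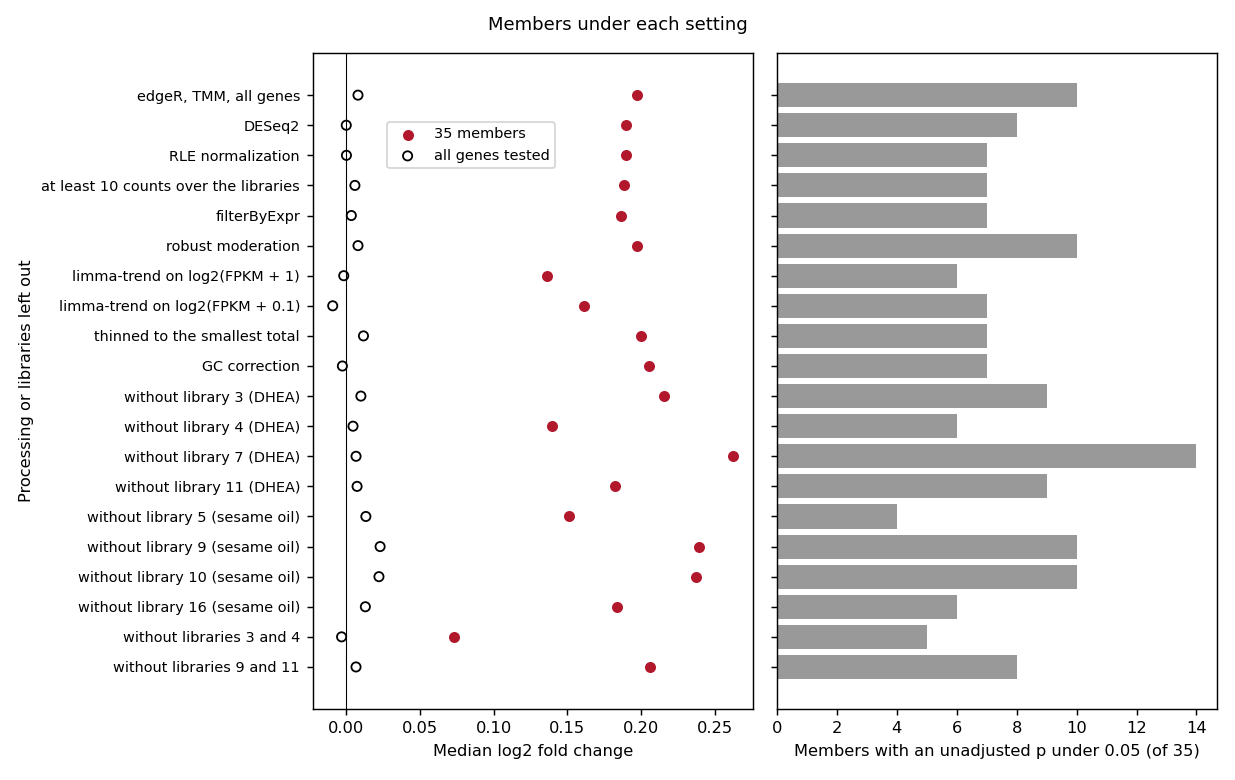
Left, median log2 fold change (horizontal axis) of the 35 members (red) and of all genes tested (open) under each processing or set of libraries (vertical axis); right, the number of the 35 members with an unadjusted p under 0.05. The members' median stays above that of all genes in each setting shown and is lowest, at 0.073, without libraries 3 and 4.

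Several technical measures moved with the groups. Between 35748416 and 38038361 reads were counted per DHEA library and between 31483772 and 35418297 per sesame oil library (two-sided exact permutation test over 70 allocations, p = 0.0286, the smallest p that 4 against 4 allow). The share of counts on 13 mitochondrial genes was 7.29% to 9.34% against 6.37% to 7.23% (same exact permutation test, p = 0.0286, and 0.0286 after adjustment over these 2 measures), with library 4 highest and library 5 lowest, as for the members. The rank correlation across genes between the deviation of a library and the GC content of the transcript lay between -0.15 and -0.0095 for libraries labelled DHEA and between 0.069 and 0.18 for the others. Genes are not independent replicates, so these values are descriptions. The median GC content of the members was 51.4%, beside 49.7% for genes averaging at least 10 counts. After the trend with GC content was removed from every library, the members' median was 0.21, and 7 members had an unadjusted p under 0.05, with 8.55% of all genes doing so. After thinning to the smallest total the median was 0.20 and the count was 7, beside 9.16% of all genes. The part of the mitochondrial share in the members' values was not tested.

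Further genes of microglia that were not among the members, such as the purinergic receptor P2ry12 and the complement subunits C1qa, C1qb and C1qc, showed the same direction. Of 33 such genes, 32 had a log2 fold change above 0 (median 0.25), 11 had an unadjusted p under 0.05 with higher and 0 with lower levels in the libraries labelled DHEA. Mpeg1, which encodes perforin-2, had the smallest adjusted p of the list (0.263), with 35.6, 40.6, 33.6 and 32.0 CPM against 22.6, 31.7, 28.7 and 25.8 CPM and no overlap. C1qa, Fli1 and P2ry12 followed, with log2 fold changes of 0.33, 0.49 and 0.37 and adjusted p values of 0.303, 0.323 and 0.341. Groups did not overlap for 4 of the 33, all higher. Among genes averaging at least 10 counts, 3.63% were higher without overlap and 6.85% were higher with an unadjusted p under 0.05. Their summed level was 537, 619.6, 489 and 487 CPM in the libraries labelled DHEA and 420.0, 479, 457 and 442 CPM in the others, with library 4 highest and library 5 lowest again. Without libraries 3 and 4, 27 of the 33 were above 0, the median was 0.15 and 3 had an unadjusted p under 0.05. When 1 library was left out, the median was 0.19 to 0.30 and the count 5 (without DHEA library 4) to 15, and P2ry12 was at 0.19 without library 4. On log2(FPKM + 1) with all libraries, the median was 0.14 and the count 8.

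Ligands and partners of the receptors were listed next. Of these 16 genes 15 were tested, and Csf3 had 0 counts in all libraries, which allows up to 3 counts in each. Of the 15, 12 had a log2 fold change above 0 (median 0.13), and 2 had an unadjusted p under 0.05, Pros1 with 0.30 (adjusted p 0.377) and Tgfbr2 with 0.23 (adjusted p 0.465). These 2 are 13.3% of the list, beside 9.31% of all genes tested and 13.1% of those averaging at least 10 counts. Pros1 encodes protein S, a bridging ligand of MERTK, and Tgfbr2 encodes a receptor of TGF-beta, which maintains the resting state of microglia. Without libraries 3 and 4, 8 of the 15 were above 0, the median was 0.028, and 0 were higher and 1 lower with an unadjusted p under 0.05. When 1 library was left out the median was 0.058 to 0.16, lowest without DHEA library 11. Cx3cl1, the neuronal fractalkine and the most abundant of the list at 145 FPKM, had a log2 fold change of -0.098 (adjusted p 0.655).

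Genes of the disease-associated state, which microglia take on around plaques and in demyelination, were examined as well. Of 20 genes, 18 had a log2 fold change above 0 (median 0.11), 5 had an unadjusted p under 0.05 with higher and 1 with lower levels. The 5 and the 1 together made up 30% of the list, beside 9.31% of all genes tested. Apoe, the apolipoprotein that astrocytes also make and the most abundant gene of the list at 482 FPKM, had a log2 fold change of 0.016 (SE 0.064). Lyz2, the lysozyme of macrophages, was measured at 13.9, 14.3, 7.10 and 18.8 CPM in the libraries labelled DHEA and 6.55, 8.72, 8.41 and 7.08 CPM in the others. Libraries 3, 4 and 11 lay above and library 7 within the sesame oil range, with a log2 fold change of 0.81 (SE 0.20, adjusted p 0.241). Cd9, a tetraspanin also found in oligodendrocytes, had a value of 0.19 (adjusted p 0.366), Clec7a, the beta-glucan receptor dectin-1, 1.19 (adjusted p 0.436), and Cd63, a tetraspanin of late endosomes, 0.22 (adjusted p 0.452). With DESeq2, Lyz2 was the 1 gene of this list with an adjusted p under 0.05. Without libraries 3 and 4, 13 of the 20 were above 0 (median 0.051), and when 1 library was left out the median was 0.078 to 0.20, highest without DHEA library 7. The number higher with an unadjusted p under 0.05 was 3 without libraries 3 and 4 and 3 to 7 when 1 library was left out. The gene with lower levels was Csf2ra, a receptor subunit of granulocyte-macrophage colony stimulating factor, with a log2 fold change of -0.47 (SE 0.17, adjusted p 0.398). With libraries 3 and 4 left out, with robust moderation and on both FPKM scales, 0 of the 20 were lower with an unadjusted p under 0.05.

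Most inflammatory mediators and sensors were low. Of 16 genes 15 were tested, Il10 having 0 counts in every library, and 10 of the 15 had a mean under 1 CPM. Values above 0 were found for 10 of the 15 (median 0.029), and Tlr4, the receptor of lipopolysaccharide, was the 1 gene with an unadjusted p under 0.05 (log2 fold change 0.62, SE 0.26, adjusted p 0.467). That 1 gene was 6.67% of the list, beside 9.31% of all genes tested with an unadjusted p under 0.05. The number of genes higher with such a p was 0 without DHEA library 3 or 4 and without sesame oil library 5 or 10. It was also 0 without libraries 3 and 4 together and on both FPKM scales. The median was 0.19 without libraries 3 and 4, and it ran from -0.033 without DHEA library 7, with 6 of 15 above 0, to 0.20 without sesame oil library 10, so no direction is given for the list. Il18, the most abundant per length at 7.82 FPKM, had a log2 fold change of 0.016.

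Markers of other cells were counted beside the members. Border macrophages of the meninges and vessels share many genes with microglia, and 1 of 11 of their markers, the mannose receptor Mrc1, had an unadjusted p under 0.05 (log2 fold change 0.44, adjusted p 0.490). This was 9.09% of the list, beside 9.31% of all genes tested. The median of the 11 was 0.022, 7 were above 0, and none was at 0 counts in all libraries. Their most abundant gene per length was the scavenger receptor gene Stab1 at 1.96 FPKM, and their sum was 37.8, 31.2, 22.9 and 40.5 CPM in the libraries labelled DHEA and 28.4, 30.001, 32.0 and 29.1 CPM in the others. The 20 blood leukocyte markers summed to 5.49, 2.78, 1.28 and 9.33 CPM and 2.02, 3.50, 5.75 and 2.41 CPM, led by S100a9 of neutrophils at 1.80 FPKM. Plac8 and Chil3 were the 2 of these 20 with an unadjusted p under 0.05 (10%, beside 9.31% of all genes tested), and the median was 0.094. With DESeq2, with robust moderation and without DHEA library 11, 0 of these 20 were higher with such a p. For the 5 red cell genes, led by Hbb-bs, the sums ranged from 45.7 to 159 CPM, 0 of 5 had an unadjusted p under 0.05, and the median was 0.077. Without libraries 3 and 4 the medians of the border macrophage, blood leukocyte and red cell lists were -0.023, -0.73 and -0.57. When 1 library was left out, the median ran from -0.0042 (without DHEA library 3) to 0.36 (without DHEA library 7, with 9 of 11 above 0 and 3 with an unadjusted p under 0.05) for border macrophages. It ran from -0.49 (without DHEA library 11) to 0.38 (without sesame oil library 10) for blood leukocytes and from -0.17 (without sesame oil library 5) to 0.38 (without DHEA library 7) for red cells, so the sign of each of these medians rests on single libraries. The part of these cells in the members' values was not tested.

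Other glial markers differed in the same direction as the members. Over all genes tested, 4.82% had an unadjusted p under 0.05 with higher levels in the libraries labelled DHEA, and 6.85% of those averaging at least 10 counts. Of 10 markers of myelinating oligodendrocytes, all 10 had an unadjusted p under 0.05 and were higher in the libraries labelled DHEA (median 0.37). Among those with the smallest p were Cldn11, Cnp, Mbp and Mobp, with log2 fold changes of 0.48, 0.42, 0.39 and 0.38 and adjusted p values of 0.148 to 0.275 (edgeR). With DESeq2, 2 of the 10 had an adjusted p under 0.05, Cldn11 among them. Without libraries 3 and 4, all 10 were above 0 (median 0.29) and 6 had an unadjusted p under 0.05. The number of oligodendrocyte markers under this threshold was 8 to 10 when 1 library was left out. It was 8 with filterByExpr and 7 with robust moderation and on log2(FPKM + 1). These genes summed to 6606, 8339, 6531 and 6743 CPM in the libraries labelled DHEA and 5301, 6345, 5269.6 and 4458 CPM in the others, with library 4 highest and library 16 lowest. Of 10 astrocyte markers, 7 had an unadjusted p under 0.05, all higher (median 0.18), with sums of 6185, 7363, 6578 and 6509 CPM against 5440.4, 6268, 5770.3 and 6048 CPM, library 4 being highest and library 5 lowest, and the glutamate transporter gene Slc1a2 most abundant per length. The smallest p values were those of S100b, Gfap, Sox9, Slc1a2 and Gjb6, with log2 fold changes of 0.37, 0.26, 0.20, 0.18 and 0.28 and adjusted p values of 0.240 to 0.480 (edgeR). Without libraries 3 and 4, 9 of the 10 were above 0 (median 0.15) and 4 had an unadjusted p under 0.05. The number of astrocyte markers under this threshold was 3 to 8 when 1 library was left out. It was 5 with DESeq2 and 3 with limma on log2(FPKM + 1). For oligodendrocyte precursors 2 of 5 markers were higher with an unadjusted p under 0.05 (Pdgfra and Olig1, which was also the most abundant per length), the median was 0.15 (0.083 without libraries 3 and 4), and the sums were 289, 302, 285 and 264 CPM against 243, 263, 254 and 246 CPM. For endothelium and pericytes 4 of 13 were higher with an unadjusted p under 0.05 (Ly6c1, Slco1a4, Pecam1 and Rgs5, the last being the most abundant per length). This number was 2 without libraries 3 and 4, and 1 was lower. With DESeq2, Ly6c1 and Slco1a4 had an adjusted p under 0.05. The median was 0.082 (0.022 without libraries 3 and 4), and the sums were 587, 635, 508 and 544 CPM against 503, 517, 499 and 492 CPM.

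Neuronal and hippocampal field markers were counted in the same way. Of 10 neuronal genes, 1 had an unadjusted p under 0.05, Rbfox3, which encodes NeuN and was lower (log2 fold change -0.16, SE 0.055, adjusted p 0.348). This was 10% of the list, beside 9.31% of all genes tested. Snap25 was the most abundant per length, the sums ranged from 11699 to 12514 CPM and the median was -0.010 (-0.068 without libraries 3 and 4, and from -0.041 without DHEA library 3 to 0.027 without DHEA library 11 when 1 library was left out). For the 8 hippocampal field markers the median was -0.060 (-0.10 without libraries 3 and 4, and -0.12 to -0.0073 when 1 library was left out), with 0 of 8 under the threshold. The proportion of each cell type in the dissected tissue and the part of the other glia in the microglial values were not tested. No marker of the oligodendrocyte, astrocyte, precursor, endothelial, neuronal, border macrophage, blood or red cell lists had 0 counts over all 8 libraries.

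**Figure D5:**
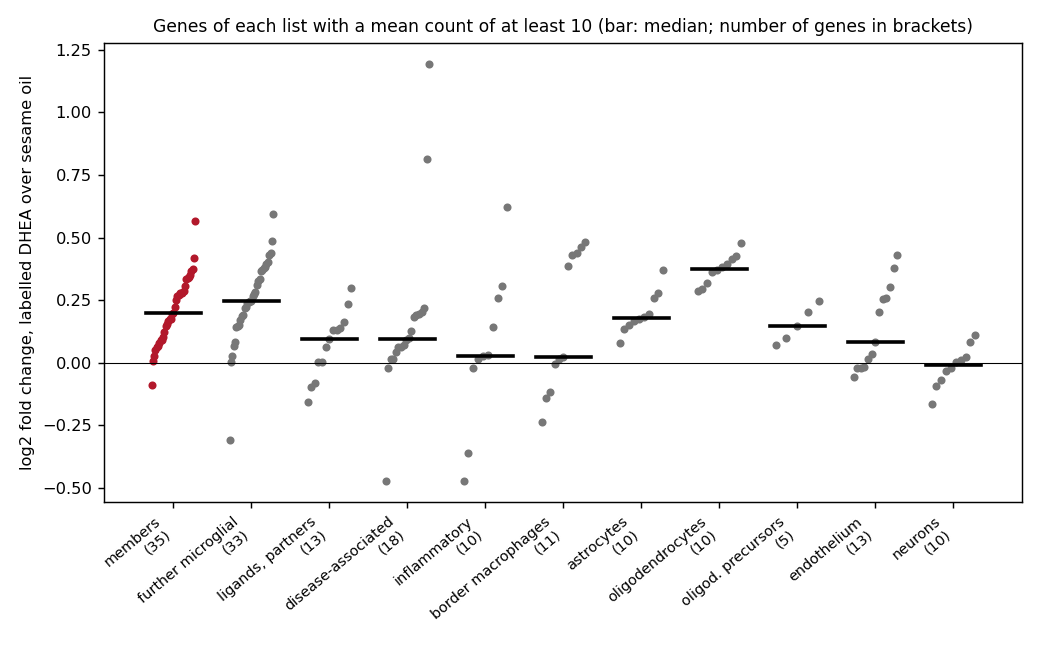
Log2 fold change (vertical axis) of the genes of each list averaging at least 10 counts (grey points; red for the members), with the median as a bar and the number of genes in brackets. The medians are 0.20 for the members, 0.25 for further microglial genes, 0.37 for oligodendrocytes, 0.18 for astrocytes and -0.01 for neurons.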

How the data were processed

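RNA-seq of hippocampus from 8 mice (4 per group) was analysed. The files hold counts of reads per gene that the authors deposited without normalization, made with fastp, HISAT2 and HTSeq according to the submitters' processing notes, which name build GRCm39. Versions and the strand setting of the counting are not given in the sources used here. The deposited FPKM values are these counts divided by the library total and 1 length per gene (equal within 0.1% for 25234 of 25234 genes), so they serve to compare levels between genes. No deposited column was left without a sample, and no row lacked a gene name.

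Counts of the 27612 genes with at least 1 count were normalized by TMM and tested with the quasi-likelihood test of edgeR 4.0.16 in R 4.3.3, with Benjamini-Hochberg adjustment over all of them. Unadjusted p values were only counted against 0.05, and the adjusted p values of single genes come from this test unless DESeq2 1.42.0 is named. CPM are TMM-scaled counts per 1000000. Total counts of 31483772 to 38038361 make 3 counts, the limit for a gene at 0, correspond to less than 0.1 CPM, which covers counting error only. Libraries of a group differed by more than sampling noise (smallest chi-square per degree of freedom 7.82 over 12 pairs). Each title carries a number and nothing says that numbers pair the mice, so no pairing was used.

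The members and lists were chosen with earlier results of these data known. All 35 members are described, those with an unadjusted p under 0.05, without overlap of the groups or most abundant in their role group with all values. Of each other list, the most abundant gene, up to 5 genes with an unadjusted p under 0.05 and markers at 0 counts were named; other markers were named as examples or beside a member, and a few genes of these lists are counted but not reported here by name. Alternatives were DESeq2, RLE normalization, a minimum of 10 counts, filterByExpr, robust moderation, limma 3.58.1 on log2(FPKM + 1) and log2(FPKM + 0.1), thinning, a correction for GC content (lowess, GENCODE vM21 transcripts, 92.7% of genes averaging at least 10 counts matched by symbol) and leaving out libraries. The promoter windows are of build GRCm38.p6 and were matched by symbol, and no coordinates of the counts were used. The scripts were tested on simulated counts.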

Additional observations from a re-analysis of the deposited data

Results flagged for a closer look

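In 118 groups of 4 libraries (each member, list and role group within each treatment), 1 library stood far from the other 3, by its gap relative to the range of the group, in 11 groups, where chance gives 5.9 (about 1 in 20). No explanation is given for any of them.

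DHEA library 4 stood apart upwards for Sall1 (29.4 CPM, the others 25.6 to 25.9), Siglech (20.98 CPM, the others 16.5 to 16.8), Cd33 (7.04 CPM, the others 5.28 to 5.38) and Cd53 (12.7 CPM, the others 7.96 to 8.56). The summed oligodendrocyte markers of library 4 were at 8339 CPM, with the others at 6531 to 6743 CPM, and its hippocampal field markers stood apart downwards at 1221 CPM, with the others at 1237 to 1239 CPM. DHEA library 7 was low for Slco2b1 (19.6 CPM, the others 23.8 to 24.4), and DHEA library 11 was high for Mertk (65.7 CPM, the others 46.5 to 47.3). Among the sesame oil libraries, library 10 was high for Ptprc (5.24 CPM, the others 3.21 to 3.32) and low for the summed disease-associated genes (2338 CPM, the others 2457 to 2474). Sesame oil library 5 was low for the summed surface proteins of resting microglia, at 99.4 CPM with the others at 113.8 to 115.5 CPM.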

How the results depend on the processing

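The 10 members with an unadjusted p under 0.05 had a log2 fold change above 0 in all settings run. They were picked by their p in the main fit, and the settings share libraries, so a stable sign was largely fixed by the choice. Of all 35 members, 27 were above 0 in all 8 fits that left out 1 library, and 26 without libraries 3 and 4. The number of members with an unadjusted p under 0.05 was 6 with limma on log2(FPKM + 1) and 5 without libraries 3 and 4. It was 7 to 10 under the other settings that kept all libraries. With 1 library left out, it was 4 (without sesame oil library 5) to 14 (without DHEA library 7). It was 6 without DHEA library 4 and 6 without sesame oil library 16. Of all genes tested, 9.43% were under 0.05 with limma on log2(FPKM + 1) and 7.89% without libraries 3 and 4. This share was 8.21% to 12.5% under the other settings that kept all libraries and 6.53% to 13.4% when 1 library was left out. Among the 10 members, Fcgr3 and Fcrls were above 0.05 with DESeq2, RLE normalization, a minimum of 10 counts and filterByExpr. They were also above it on both FPKM scales, after thinning and after GC correction. Slco2b1 was above 0.05 with RLE normalization, a minimum of 10 counts and filterByExpr, on both FPKM scales and after thinning. Hpgds was above it on log2(FPKM + 1) and after GC correction. The members' median was 0.14 to 0.26 when 1 library was left out and 0.073 without libraries 3 and 4. Over all genes, 0 had an adjusted p under 0.05 with edgeR; the number was 153 with DESeq2, 4 with robust moderation, 1 without libraries 3 and 4, 38 without libraries 9 and 11, and 0 to 93 when 1 library was left out (93 without DHEA library 7). An unadjusted p under 0.05 was found for 2571 genes with edgeR, 1332 of them higher, and for 2604 with limma on log2(FPKM + 1), 1055 of them higher.

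The sign of some members turned. Csf3r was at -0.00020 with DESeq2, -0.00040 with RLE normalization, -0.0015 with at least 10 counts, -0.0028 with filterByExpr, -0.0032 on log2(FPKM + 1), -0.034 after thinning and -0.042 without libraries 9 and 11. Olfml3 was at -0.0072 on log2(FPKM + 1), -0.0082 on log2(FPKM + 0.1) and -0.16 without libraries 3 and 4. Without those 2 libraries, Tyrobp was at -0.030, Cd33 at -0.021, Tmem119 at -0.064, Cd53 at -0.043, Cyth4 at -0.024, Aif1 at -0.040 and Cd68 at -0.071. When 1 library was left out, the range was -0.11 to 0.13 for Csf3r, -0.050 to 0.10 for Olfml3, -0.030 to 0.18 for Cd33, -0.015 to 0.25 for Cd53, -0.12 to 0.19 for Aif1, -0.033 to 0.16 for Cd68, -0.0093 to 0.10 for Cyth4 and -0.16 to 0.028 for Bin2. The cause of these changes was not tested. The p values set a difference against the spread between 4 mice per group, with the variance of each gene moderated over all genes. The median SE of a single member was 0.13, and the members' median difference was 0.20. No SE of that median was estimated.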

Other observations

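Csf2ra, the receptor subunit with lower levels among the disease-associated genes, was split by library. It stood at 13.9 and 13.3 CPM in DHEA libraries 3 and 4 and at 24.1 to 29.6 CPM in the other 6 libraries, among them DHEA libraries 7 and 11 at 26.2 and 24.6 CPM. Libraries 3 and 4 were at the high end of the 8 for Gpr34 (15.4 and 18.8 CPM) and P2ry12 (56.3 and 72.7 CPM). DHEA library 11 had 18.8 CPM of Lyz2. In the same library Csf1r was at 74.3 CPM and Fcrls at 17.8 CPM, the lowest values of the libraries labelled DHEA. The pairing of these genes was chosen after their values were seen.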
